A study of Mus musculus with 8 samples.

Results

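The genotype dependence of the ethanol response was examined in mouse primary hepatocytes: for each gene, the log2 change with ethanol in cells lacking transglutaminase 2 minus the log2 change in wild-type cells. This difference, the interaction, was computed from all 8 arrays of the series for 10741 genes, each represented by its brightest probe set. It was called, at a limma adjusted p under 0.05, for 539 of them. The called genes were then sorted by form, that is, by whether ethanol had opposite effects in the genotypes, a called effect in 1 genotype alone, effects of the same direction but unequal size, or a called effect in neither. A further, overlapping count took the genes whose level in knockout cells moved with ethanol towards the wild-type level.

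The 4 groups were wild-type cells (WT) at 0 mM ethanol, WT at 100 mM ethanol, knockout cells (KO, TG2KO in the labels) at 0 mM and KO at 100 mM. All were incubated for 15 h, the strain is given as C57BL6/129SVJ for the mice, and each group had 2 arrays, A and B. The age of the mice, the allele and the number of animals per culture are not stated in the labels. Nor do the labels say that A and B are different animals or cultures, so the p-values reflect the spread between the arrays of a group and possibly no more than technical variation. For both B arrays of the ethanol groups, the treatment text reads like a control incubation while title and source name give 100 mM, and the titles were followed here.

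Transglutaminase 2, encoded by Tgm2, is a calcium-dependent enzyme that crosslinks proteins by joining glutamine to lysine side chains. The study asks about its part in alcohol injury of the liver, where the enzyme is known to crosslink the transcription factor Sp1. Hepatocytes oxidise ethanol to acetaldehyde and acetate with alcohol and aldehyde dehydrogenases and the cytochrome P450 Cyp2e1, which shifts the redox state of the cell and its lipid metabolism. Isolated hepatocytes also express inflammatory genes under the transcription factor NF-kB, and the crosslinking enzyme has been linked to that pathway.

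The arrays had trimmed mean intensities from 113.3 to 341.5 before normalisation. On arrays A and B they were 228 and 307.1 in WT at 0 mM, and 246 and 284.4 in WT at 100 mM. In KO they were 113.3 and 117 at 0 mM, and 117.5 and 341.5 at 100 mM. Ethanol KO B was thus the brightest array and ethanol KO A was near untreated KO. The part of this difference in the results was not tested. The ratio of 3′ to 5′ signal of the control transcript Pcx, a measure of how intact and fully copied the RNA is (higher when less so), moved with ethanol in opposite directions in the genotypes. It was 10 and 16.8 in WT at 0 mM, 26.7 and 44.5 in WT at 100 mM, 10.6 and 8.69 in KO at 0 mM, and 4.91 and 5.45 in KO at 100 mM. For Pcx this is the pattern of an interaction, and its part in the results below was not tested. The same ratio for Gapdh rose with ethanol in both genotypes. It went from 0.831 and 0.821 to 0.977 and 0.928 in WT, and from 0.78 and 0.771 to 0.826 and 0.839 in KO. For Actb it was 1.33 and 1.24, then 1.62 and 1.48 in WT, and 1.25 and 1.24, then 1.23 and 1.15 in KO. With ethanol the Actb ratio was thus higher in WT and slightly lower in KO, the same directions as for Pcx. Its part in the results was not tested either. Arrays A and B were less alike in ethanol KO (SD of their log2 differences 0.503) than elsewhere (0.315 to 0.327), and ethanol KO B correlated less with ethanol KO A (0.967) than with either untreated KO array (0.973 and 0.972). By the ratio of the spiked control transcripts bioC and bioB, 3 arrays (the A arrays of every group but untreated KO) lay between 1.12 and 1.38 and the other 5 between 3.22 and 3.87. All 4 groups are represented among those 5, called the second array set here. The sets are balanced between untreated and ethanol arrays in WT but not in KO, where both untreated arrays lie in the second set. The ethanol effect in KO, and with it the interaction, is therefore partly confounded with the array set. The labels name no such batches. Hepatocyte markers were bright, with a summed intensity of 82600 to 97660 per array over the 9 of 12 markers with usable values.

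Tgm2 itself read at normalised intensities of 16660 and 16840 in WT at 0 mM, 16840 and 16840 in WT at 100 mM, 378 and 368 in KO at 0 mM, and 704 and 628 in KO at 100 mM. All KO arrays lay far below all WT arrays. With ethanol it rose in KO by 0.81 ± 0.073 on the log2 scale (limma adjusted p = 0.00034), and its interaction was 0.80 ± 0.103 (adjusted p = 0.0042). In WT the brightest probe set sits at the top of the range, where the normalisation itself sets the value. For that probe set the interaction therefore rests on the KO change alone. Of its 6 probe sets, 3 were called, all above 0. The labels do not say where the deletion lies, so the KO signal cannot be assigned to a remaining or a removed part of the gene.

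Of 19814 tested probe sets, 1061 (5.35%) had a called interaction, 708 above 0 and 353 below, and 4457 had an unadjusted p under 0.05. Among genes, 539 of 10741 (5.02%) were called. In 345 of them (3.21%) the interaction was above 0, meaning that ethanol raised the gene more, or lowered it less, in KO than in WT. In the other 194 (1.81%) it was below 0. The ethanol effect taken alone was called for 247 genes rising (2.3%) and 270 falling (2.51%) in WT, and for 1513 rising (14.1%) and 1076 falling (10%) in KO. Over all tested genes the median interaction was -0.00411, and the median model standard error (SE) of an interaction was 0.228. Genes next to the threshold on its inner side were Paip2 (-0.40 ± 0.0989, adjusted p = 0.04992) and Ifnar2 (0.71 ± 0.175, adjusted p = 0.04999), and on its outer side Ugt2a3 (-0.58 ± 0.143, adjusted p = 0.05) and Il1rn (-0.85 ± 0.209, adjusted p = 0.05004).

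The number of calls changed with the arrays used. The number of called probe sets fell to 297, 322, 331, 330, 195 and 247 when untreated WT A or B, ethanol WT A or B, or untreated KO A or B was left out. Without ethanol KO B it was 4402, with 48.2% above 0 against 66.7% in the full data. Counted as untreated, as their treatment text reads, the B ethanol arrays left 0 limma calls, with 2401 probe sets at an unadjusted p under 0.05. Without these 2 arrays there were 3280 calls, and without the intensity trend in the variance prior 85. With probe sets missing on 1 array kept, 85.2% of the calls were above 0.

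**Figure D1:**
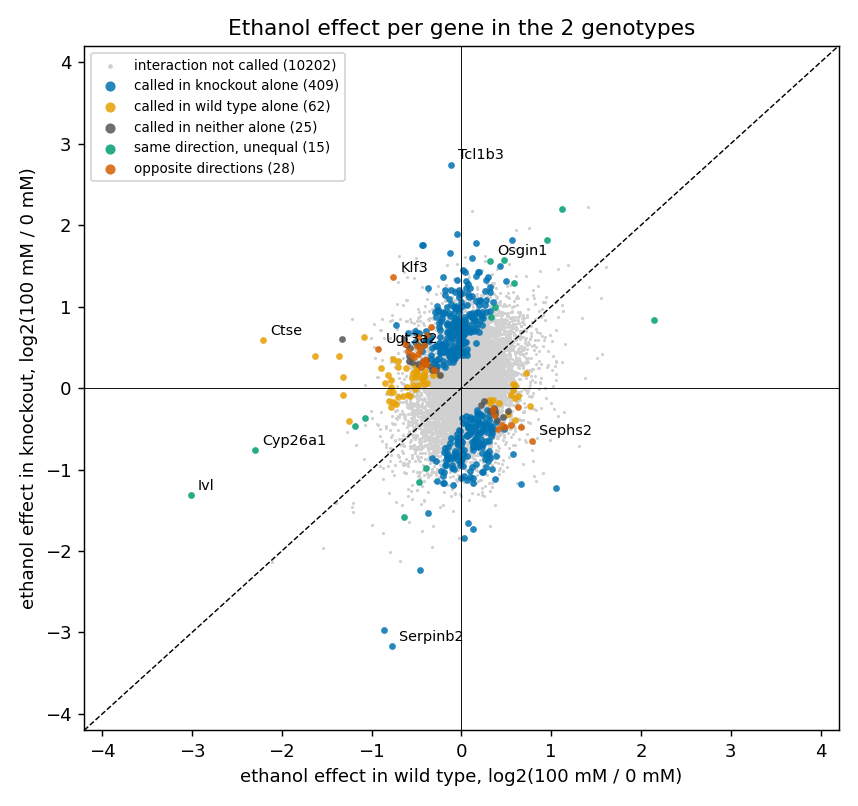
Ethanol effect of each tested gene, log2 of 100 mM over 0 mM, in wild type (x axis) and in knockout (y axis), on log2(normalised intensity + 16). Grey points are genes whose interaction was not called, coloured points the 539 called genes by form, and the dashed line marks equal effects. Most called genes, 409 of 539, spread along the vertical axis, where the effect was called in the knockout alone.

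**Figure D2:**
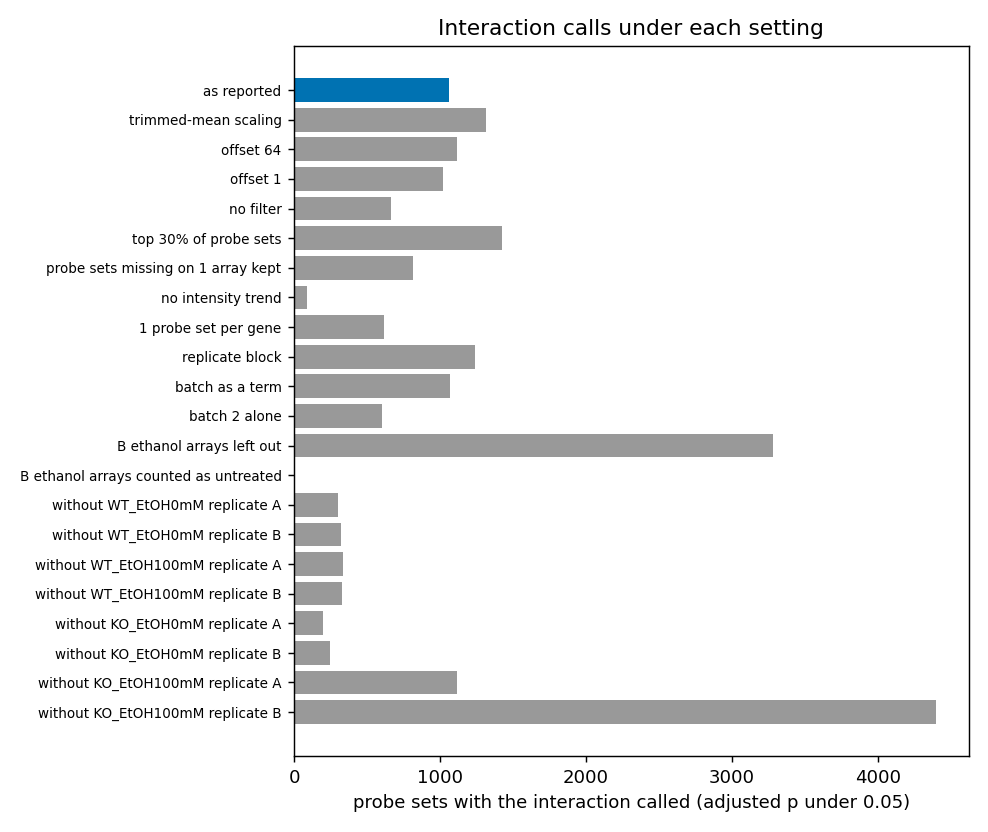
Number of probe sets with a called interaction (x axis, adjusted p under 0.05) as reported (blue) and under each alternative setting (grey, y axis). The counts run from 0, with both B ethanol arrays read as untreated, to 4402, without ethanol knockout B.

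Ethanol moved 28 genes (0.261% of those tested) in opposite directions in the genotypes, with both effects and their difference called. In 19 of them the level fell in WT and rose in KO. In the other 9 it rose in WT and fell in KO. The size of the interaction had a median of 0.937 and ran from 0.531 to 2.12.

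Klf3, a zinc finger transcription factor that represses many of its targets, had the largest interaction of this form. Its intensity was 332 and 370 in WT at 0 mM, 206 and 196 in WT at 100 mM, 251 and 187 in KO at 0 mM, and 601 and 566 in KO at 100 mM. Both ethanol KO arrays exceeded every other array, and both ethanol WT arrays lay below untreated WT. Klf3 fell 1.69-fold in WT and rose 2.57-fold in KO, an interaction of 2.12 ± 0.212 (adjusted p = 0.0018). This probe set was the only 1 of 4 for Klf3 to be called. The others gave 0.715, 0.231 and -0.172.

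Ugt3a2, a UDP-glycosyltransferase of the conjugation pathway, read 1767 and 1814 in WT at 0 mM, 914 and 957 in WT at 100 mM, 1661 and 1631 in KO at 0 mM, and 2600 and 2046 in KO at 100 mM. Its untreated levels were alike in the genotypes (KO minus WT -0.12, adjusted p = 0.43), and the ethanol groups lay on either side of them without overlap. The fall in WT was 1.9-fold and the rise in KO 1.4-fold, with an interaction of 1.41 ± 0.15 (adjusted p = 0.0023). Tnfrsf12a, the receptor for the cytokine TWEAK, read 5448 and 5343 in WT at 0 mM, 3311 and 3661 in WT at 100 mM, 4959 and 5091 in KO at 0 mM, and 8514 and 6270 in KO at 100 mM. Its groups were ordered in the same way, the 2 ethanol groups at the extremes. The interaction was 1.17 ± 0.172 (adjusted p = 0.0073), called on both of its probe sets. Prep, a peptidase that cuts after proline, differed from these in its untreated levels. It read 1097 and 1067 in untreated WT against 610 and 577 in untreated KO, and 747 and 791 against 949 and 905 with ethanol. The genotypes thus changed places with ethanol, with an interaction of 1.12 ± 0.122 (adjusted p = 0.0025).

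The start regions of Klf3 and Tnfrsf12a are shown because the study concerns Sp1, which binds GC boxes, and because, of the 4 genes just described, these have an entry in the promoter table. Ugt3a2 and Prep have none. Each is the 250 bases before the annotated start in RefSeq's GRCm38.p6, 5′ to 3′ on the gene's strand, at chr5:64803271-64803520 (plus strand) for Klf3 and chr17:23677450-23677699 (minus strand) for Tnfrsf12a. Capitals mark the GC box, the letters GGGCGG on either strand, of which the first region holds 6 and the second 5.
Klf3: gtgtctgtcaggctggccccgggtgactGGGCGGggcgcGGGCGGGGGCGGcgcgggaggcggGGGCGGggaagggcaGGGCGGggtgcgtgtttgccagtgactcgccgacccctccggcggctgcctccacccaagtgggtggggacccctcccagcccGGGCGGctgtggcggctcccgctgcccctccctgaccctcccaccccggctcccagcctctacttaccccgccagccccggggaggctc
Tnfrsf12a: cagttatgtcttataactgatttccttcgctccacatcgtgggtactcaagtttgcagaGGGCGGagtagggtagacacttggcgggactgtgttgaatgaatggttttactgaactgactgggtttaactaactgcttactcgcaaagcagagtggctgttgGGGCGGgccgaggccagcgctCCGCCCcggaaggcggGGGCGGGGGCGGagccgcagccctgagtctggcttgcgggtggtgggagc
Such a box was present in 15 of 25 regions (60%) of genes with opposite effects, in 241 of 429 (56.2%) of genes called in KO alone and in 33 of 65 (50.8%) of genes called in WT alone. Over all tested genes it was present in 6342 of 11209 (56.6%), and over the whole table in 10756 of 32851 (32.7%). A match describes the letters and is not a binding site.

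Among the 9 genes that rose in WT and fell in KO, Sephs2, which makes the selenium donor for selenoproteins, led with 1547 and 1761 in WT at 0 mM, 2741 and 2991 in WT at 100 mM, 2205 and 2087 in KO at 0 mM, and 1294 and 1440 in KO at 100 mM. Ethanol KO was the lowest group and ethanol WT the highest, with no overlap. Its interaction was -1.44 ± 0.131 (adjusted p = 0.0014), although its other 2 probe sets gave -0.269 and 0.0669. Rgs16, which switches off G-protein signalling, read 202 and 210 in WT at 0 mM, 315 and 358 in WT at 100 mM, 1675 and 1665 in KO at 0 mM, and 1173 and 1224 in KO at 100 mM. The gap between genotypes narrowed from both sides, from 7.6-fold to 3.45-fold, and 2 of 3 probe sets were called. Arih2, a ubiquitin ligase, had an interaction of -1.0 ± 0.143, and Polr2a, the largest subunit of RNA polymerase II, of -0.96 ± 0.152. Each was called on 1 probe set, of 5 and of 2.

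The other members of the form, named without values, were Zyx, Qsox1, Tln1, Ifrd2, Arpc4, Lims2, Mlf2, Snx9, Gatad2a, Pdlim7, Igf2r, Ptbp1, Pfn1, Dusp5 and Mid1ip1, which fell in WT and rose in KO, and Prg4, Arpp19, Egr1, Sdad1 and Ikbke, which did the reverse. The number of genes in this form was 3 to 7 when any of the 6 WT or untreated KO arrays was left out, 50 without ethanol KO A and 110 without ethanol KO B. It was 2 without the intensity trend, and 0 once the B ethanol arrays were taken as untreated.

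**Figure D3:**
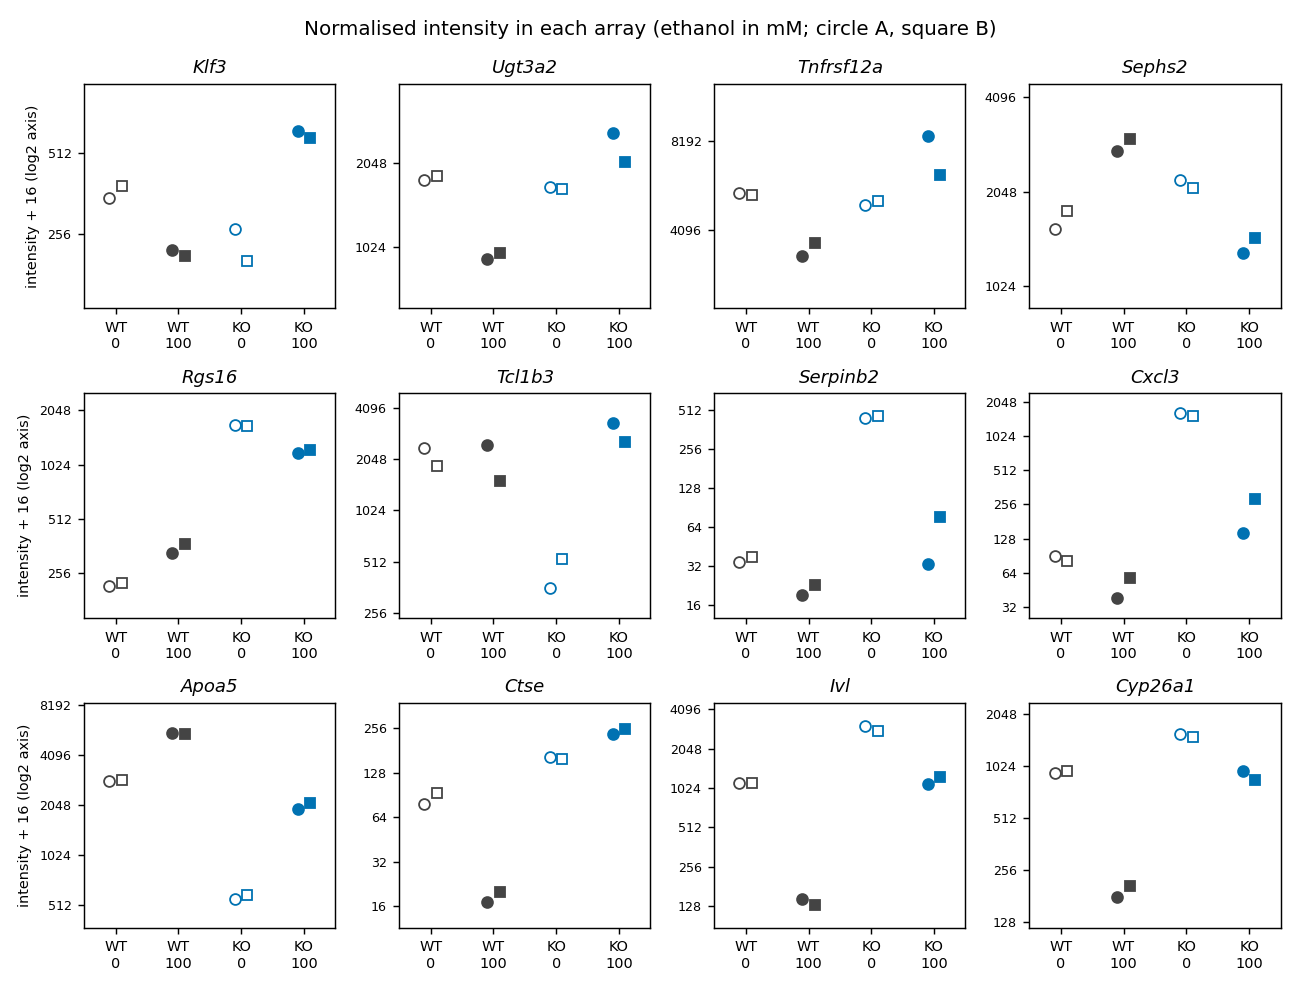
Normalised intensity plus 16 (y axes, log2 scale, different ranges) of 12 genes on each array, by genotype and mM ethanol (x axes). Grey is wild type and blue knockout, open symbols are 0 mM and filled symbols 100 mM, circles are A and squares B arrays. In the top row, the ethanol groups of Ugt3a2 and Tnfrsf12a lie on opposite sides of both untreated groups. For Klf3, ethanol knockout lies above both untreated groups, while ethanol wild type lies below untreated wild type and overlaps untreated knockout.

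In 409 genes (3.81%) the interaction was called with an ethanol effect called in KO and not in WT. Ethanol raised 251 of them in KO and lowered 158. Their median size was 0.729 in KO and 0.138 in WT, and the median size of the interaction was 0.784. Untreated KO already differed from untreated WT in 345 of them, 129 higher and 216 lower. Over all genes, 1623 (15.1%) were higher and 2258 (21%) lower in untreated KO.

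Tcl1b3, of a family best known from oocytes and early embryos, had an interaction of 2.86 ± 0.355 (adjusted p = 0.0038). It read 2366 and 1851 in WT at 0 mM, 2469 and 1500 in WT at 100 mM, 343 and 518 in KO at 0 mM, and 3308 and 2562 in KO at 100 mM. Untreated KO stood apart below the other groups, and ethanol KO overlapped neither WT group. Its single probe set may also bind near-identical members of the family. E2f5, a transcription factor of the E2F family, rose from 304 and 282 to 1560 and 674 in KO, against 541 and 732 and then 477 and 444 in WT. The other 2 probe sets of E2f5 gave interactions of -0.142 and -0.403, neither of them called, and ethanol effects in KO of -0.641 and -0.389. On the called probe set the A array of ethanol KO stood above all others, while the B array lay between the untreated WT arrays. Faim2, which counters Fas-driven apoptosis, rose from 10.1 and 8.81 to 98.0 and 48.7 in KO, while WT read 76.0 and 51.1 without and 46.6 and 38.1 with ethanol. Its untreated KO values lie under the offset of 16, so the size of its change depends on that offset. Ccdc180 rose from 57.6 and 44.9 to 311 and 171 in KO.

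Among the genes whose fall was called in KO alone, Serpinb2, an inhibitor of plasminogen activators, had an interaction of -2.40 ± 0.522 (adjusted p = 0.032). It read 429 and 444 in KO at 0 mM and 17.2 and 60.1 in KO at 100 mM, against 18.3 and 21.5 in untreated and 3.07 and 7.04 in ethanol WT. The A array of ethanol KO lay below both untreated WT arrays and the B array above them. Serpinb2 was also lower in both ethanol WT arrays than in untreated WT, an effect of -0.77 that was not called. Il23a, a subunit of interleukin 23, read 1023 and 1010 in KO at 0 mM and 412 and 438 in KO at 100 mM, against 10.3 and 1.10, then 17.5 and 41.7 in WT. Its interaction was -2.28 ± 0.398 (adjusted p = 0.014), and the WT values lay on either side of the offset. The ethanol effect on Il23a in WT was 1.05 and was not called (limma adjusted p = 0.065). With an offset of 1 in place of 16 the interaction was -1.85 for Serpinb2 and -3.78 for Il23a, neither of them called, so the order of these genes depends on the offset. Irak1, a kinase of interleukin 1 and Toll-like receptor signalling, fell from 1359 and 1130 to 254 and 511 in KO, against 555 and 628 and then 575 and 731 in WT. Its ethanol KO values lay below all the others, and its interaction of -1.87 ± 0.369 (adjusted p = 0.022) was called on 1 of 4 probe sets. The number of genes in the form was 52 to 121 when any WT or untreated KO array was left out, 1876 without ethanol KO B and 13 without the intensity trend.

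For 62 genes (0.577%) the ethanol effect was called in WT and not in KO. It was a fall in 48 and a rise in 14. The median size was 0.591 in WT and 0.157 in KO, and the interaction had a median size of 0.644.

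Ctse, the aspartic protease cathepsin E, had an interaction of 2.79 ± 0.307 (adjusted p = 0.0025). It read 62.6 and 77.1 in untreated WT and 1.10 and 4 in ethanol WT, against 148 and 143 in untreated and 217 and 236 in ethanol KO. The 4 groups did not overlap and ethanol WT was the lowest, at values under the offset, which sets the size of the fall. Another Ctse probe set gave 0.309. Cnnm4, a metal transporter, fell in WT from 251 and 238 to 72.6 and 64.3, and read 223 and 229 without and 360 and 252 with ethanol in KO. Ethanol WT lay below all other arrays, and the interaction was 2.02 ± 0.255 (adjusted p = 0.0039), called on 1 of 3 probe sets. Habp2, a plasma serine protease made by hepatocytes, fell in WT from 202 and 254 to 70.4 and 86.9, and read 216 and 242, then 321 and 289 in KO. Its untreated levels were alike in the genotypes (KO minus WT 0.011, adjusted p = 0.97), and its interaction was 1.76 ± 0.239 (adjusted p = 0.0053), on 1 of 2 probe sets. Nol9, a kinase of ribosomal RNA processing, had an interaction of 1.71 ± 0.292.

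Of the 14 genes whose rise was called in WT alone, Rcn1, a calcium-binding protein of the endoplasmic reticulum, had an interaction of -0.99 ± 0.198 (adjusted p = 0.022). It read 258 and 250, then 368 and 421 in WT, and 393 and 344, then 250 and 305 in KO, so that ethanol KO overlapped untreated WT. Clcn3, an endosomal chloride and proton exchanger, rose in WT from 358 and 387 to 674 and 616 and read 809 and 738, then 614 and 716 in KO. The KO level of Clcn3 with ethanol overlapped that of WT with ethanol, and the interaction was -0.98 ± 0.159 (adjusted p = 0.01, on 1 of 5 probe sets). Icam1, an adhesion molecule for leukocytes, rose in WT from 227 and 219 to 348 and 303, and read 1303 and 1267, then 985 and 1074 in KO, with an interaction of -0.83 ± 0.148 (adjusted p = 0.015). All Icam1 values were higher in KO than in WT. Nat8f4, an acetyltransferase of a family of near-identical genes, had an interaction of -0.73 ± 0.137. The form held 11 to 16 genes when any WT or untreated KO array was left out, 99 without ethanol KO A, 170 without ethanol KO B and 2 without the intensity trend.

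Ethanol moved 15 genes (0.14%) in the same direction in both genotypes by unequal amounts, with 11 interactions above and 4 below 0. Ivl, which encodes involucrin, a crosslinking substrate of transglutaminases, fell in WT from 1101 and 1093 to 128 and 115 and in KO from 3016 and 2767 to 1080 and 1230. Ethanol KO thus reached the level of untreated WT, and ethanol WT stood far below all others. The fall was 8.08-fold in WT and 2.49-fold in KO, an interaction of 1.70 ± 0.142 (adjusted p = 0.0014) called on both Ivl probe sets. Cyp26a1, the P450 that degrades retinoic acid, fell from 922 and 940 to 162 and 192 in WT and from 1558 and 1492 to 946 and 839 in KO. Ethanol WT was again the lowest group and untreated KO the highest, while ethanol KO overlapped untreated WT, with an interaction of 1.53 ± 0.152 (adjusted p = 0.0018).

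Gm13889, a gene of unassigned function, rose from 34.5 and 46.0 to 224 and 239 in WT and from 417 and 424 to 814 and 719 in KO. The rise was 4.42-fold in WT and 1.79-fold in KO, from a KO level that was higher at the start. Ankrd1, a nuclear ankyrin repeat protein, fell from 777 and 754 to 488 and 488 in WT and from 854 and 863 to 284 and 270 in KO, with no overlap between the 4 groups. Its interaction was -0.94 ± 0.131 (adjusted p = 0.0056, on 1 of 2 probe sets). Without any 1 of the WT or untreated KO arrays the form held 5 or 6 genes, without ethanol KO A 33 and without ethanol KO B 136.

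A further 25 genes (0.233%) had a called interaction with neither ethanol effect called. Their interactions were 16 above and 9 below 0, with a median size of 0.752. By the naming rule these were 4931429L15Rik (1.93 ± 0.47) and Gstcd (1.23 ± 0.293) at the upper end and Zfp451 (-0.81 ± 0.197) and Taok3 (-0.80 ± 0.194) at the lower end. Their adjusted p-values lay between 0.043 and 0.047, close to the threshold. The form held 1 to 6 genes without any of the WT or untreated KO arrays and 127 without ethanol KO B.

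In 341 genes (3.17%) with a called interaction, ethanol moved the KO level towards WT: untreated KO differed from untreated WT, the ethanol effect in KO was called with the opposite sign, and the genotype gap was smaller with ethanol. The opposite pattern, away from WT, was met by 11 genes (0.102%). The untreated KO arrays enter both the starting gap and the ethanol effect, so these counts are descriptions without a test. Of the 341 genes, 122 started higher than WT and 219 started lower. The former had a median KO minus WT difference of 0.752 without ethanol and -0.0492 with it, the latter of -0.821 and -0.00557. Among the 122, the gap with ethanol was no longer called in 79, still called with the same sign in 31 and called with the reverse sign in 12. Among the 219 these numbers were 153, 47 and 19. Over all genes the KO minus WT difference with ethanol was called higher for 1328 (12.4%) and lower for 1883 (17.5%). Without any 1 of the WT or untreated KO arrays the towards group held 44 to 95 genes, without ethanol KO B 1096 and without the intensity trend 11.

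**Figure D4:**
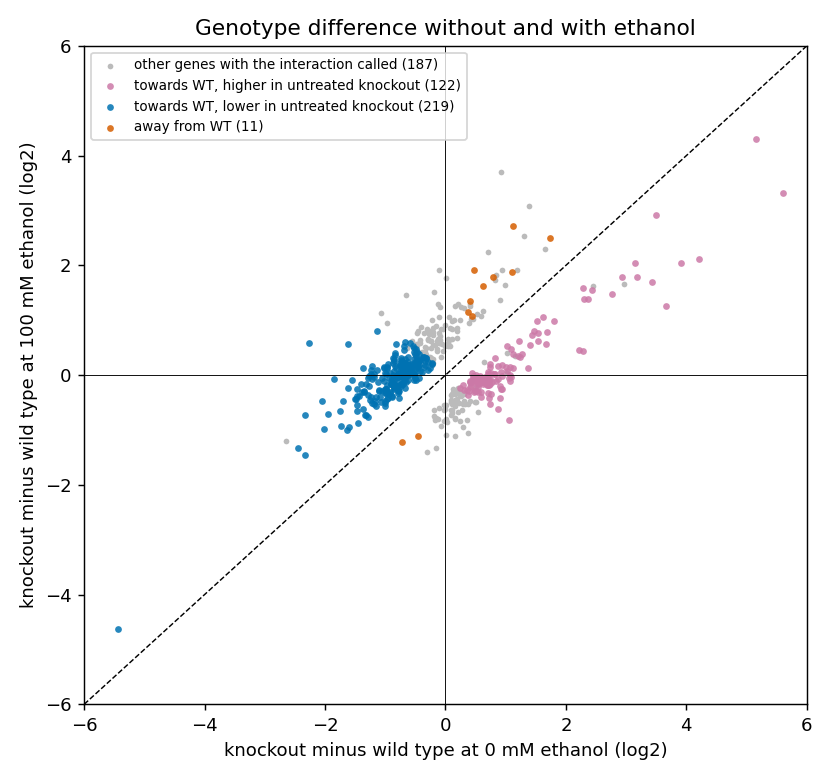
Difference between knockout and wild type (log2) at 0 mM ethanol (x axis) and at 100 mM ethanol (y axis) for the 539 genes with a called interaction. Points on the dashed line would have the same difference at both doses, and points on the horizontal line no difference with ethanol. The 341 genes that moved towards the wild type lie between the dashed line and the horizontal line or cross it, and the 11 that moved away lie outside the dashed line.

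Of the 122 genes that started higher, Serpinb2, Cxcl3, Ackr3, Nos2 and Irak1 had the largest falls in KO on the log2 scale. Cxcl3, a neutrophil-attracting chemokine, read 1610 and 1529 in KO at 0 mM and 128 and 271 in KO at 100 mM, against 73.5 and 65.8 in untreated and 22.2 and 41.6 in ethanol WT. Ethanol KO remained above every WT array, at a gap of 4.33-fold in place of 18.5-fold. Ackr3, a scavenging receptor for chemokines, read 253 and 227 in KO at 0 mM and 27.6 and 52.4 in KO at 100 mM, against 33.5 and 44.7 in untreated and 23.2 and 24.7 in ethanol WT. Its ethanol KO arrays fell on either side of untreated WT. Nos2, the inducible nitric oxide synthase, read 222 and 310 in KO at 0 mM and 51.5 and 74.2 in KO at 100 mM, while all WT arrays lay between 1.73 and 4.13, under the offset. The Nos2 level in ethanol KO thus stayed above every WT array, whereas that of Irak1 ended below them.

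Of the genes lower in untreated KO, Apoa5, an apolipoprotein that controls plasma triglycerides, read 540 and 568 in KO at 0 mM and 1922 and 2066 in KO at 100 mM, against 2829 and 2864, then 5562 and 5476 in WT. Apoa5 rose in both genotypes, and ethanol KO stayed below untreated WT. The rise was 3.53-fold in KO and 1.93-fold in WT, an interaction of 0.87 ± 0.102 (adjusted p = 0.0031). Slc25a47, a mitochondrial carrier of hepatocytes, read 1001 and 907 in KO at 0 mM and 4776 and 4113 in KO at 100 mM, against 2482 and 2567, then 5388 and 5607 in WT. Here ethanol KO passed untreated WT without reaching ethanol WT, with an interaction of 1.08 ± 0.124 (adjusted p = 0.0031). Gprin3 rose in KO from 46.4 and 34.1 to 160 and 205, overlapping ethanol WT at 162 and 198. Tcl1b3 and Ccdc180, described above, also belong to this group.

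The 11 genes that moved away from WT were Zfand2a, Dnajb1, Decr2, Angptl8, H2-Q5, Got1, Erdr1, Ankrd33b and Pltp, higher in KO and raised further, and the sterol synthesis genes Cyp51 and Idi1, lower in KO and lowered further. Erdr1 showed the greatest interaction of them (1.59 ± 0.141, adjusted p = 0.0014), from 1309 and 1284 to 3220 and 2884 in KO against 628 and 550, then 430 and 475 in WT. Its probe set may bind repeated copies of that gene. Angptl8, a hepatocyte hormone that regulates lipoprotein lipase, read 896 and 1229 in untreated and 3090 and 2731 in ethanol KO, while WT stayed between 675 and 833. The KO arrays lay above the WT arrays in both genes with and without ethanol.

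Of the 24 pathway lists, the list of NF-kB targets and chemokines had the lowest median interaction in the reported fit. Of its 25 tested genes, 8 had a called interaction, all below 0, against 1.81% below 0 over all genes. Its median interaction was -0.591, against -0.00411 over all genes, and lay between -0.733 and -0.259 under the alternatives. All 25 were called higher in untreated KO, against 15.1% of all genes. With ethanol 16 fell in KO, against 10% of all genes, while 7 fell (2.51% of all genes) and 1 rose in WT, and the median KO minus WT difference went from 2.96 to 2.1. Earlier results had already shown this list to be higher in KO, so its choice is not independent of the data. Nor is the choice of tested members. Genes were tested by their mean over all 8 arrays, so a member dim in WT could enter through its KO values. Nos2 and Il23a, at means of 2.51 and 5.71 in untreated WT, did so. The counts of higher levels and of falls in KO are therefore descriptions without a test.

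Vcam1, an adhesion molecule for leukocytes, read 1088 and 905 in KO at 0 mM and 261 and 352 in KO at 100 mM, against 77.2 and 78.7, then 75.3 and 90.7 in WT. Its level in ethanol KO stayed above every WT array, and its interaction was -1.73 ± 0.251 (adjusted p = 0.0069). Tnfaip2, induced by tumour necrosis factor, read 1547 and 1423, then 733 and 718 in KO, against 146 and 158, then 152 and 176 in WT, an interaction of -1.11 ± 0.163 (adjusted p = 0.0072). Ccl7, a chemokine for monocytes, fell from 5929 and 5562 to 2674 and 2538 in KO and read 143 and 146, then 99.8 and 137 in WT. Tnfaip3, a feedback inhibitor of NF-kB, fell in both genotypes, by 0.98 on the log2 scale in KO and by 0.39 in WT, with an interaction of -0.59 ± 0.121 (adjusted p = 0.026). The remaining called members were Il23a, Nos2, Cxcl3 and Icam1. In each of the 8, both ethanol KO arrays lay between the untreated KO and the WT arrays. The summed intensity of 16 macrophage and Kupffer cell markers was 5586 and 5946 in WT at 0 mM, 7497 and 7672 in WT at 100 mM, 6643 and 6681 in KO at 0 mM, and 9455 and 8906 in KO at 100 mM. The sum was higher with ethanol in both genotypes and was carried mainly by Cd14, at 3831 and 4082, then 5569 and 5758 in WT, and 4183 and 4304, then 6098 and 5848 in KO, followed by Cd68. The other 14 markers summed to 1344 and 1414, then 1392 and 1344 in WT, where the groups overlapped, and to 1205 and 1141, then 1497 and 1425 in KO, where ethanol was higher. Over the whole list limma called the interaction of none of the 14 tested markers, with 1 at an unadjusted p under 0.05. Among all 19814 tested probe sets, 4457 had an unadjusted limma p under 0.05. Cd163 was under 16 on every array, and the part of such cells in the result was not tested. In bulk samples, fewer cells of a type and less RNA per cell cannot be told apart.

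Among the interferon response genes, 2 of 25 had an interaction called below 0 and 1 above, against 1.81% below and 3.21% above over all genes, with a median of -0.209 (-0.279 to -0.102 under the alternatives). Iigp1, an interferon-inducible GTPase, read 5157 and 5249, then 3962 and 3816 in KO and 2219 and 2214, then 2508 and 2560 in WT (-0.61 ± 0.0889, adjusted p = 0.0071). Ifih1, a sensor of double-stranded RNA, had -0.73 ± 0.132 (adjusted p = 0.016), and Oasl1 0.57 ± 0.0926 (adjusted p = 0.01). Of 25 acute phase genes, 3 were called below and 1 above 0, to be read against the same shares, with a median of -0.0889 (-0.512 under trimmed-mean scaling). Saa3, an acute phase apolipoprotein, fell in KO from 2138 and 2100 to 1497 and 1097 and read 915 and 818, then 953 and 1013 in WT (-0.90 ± 0.187, adjusted p = 0.027). Serpina3n, a protease inhibitor, went the other way (0.91 ± 0.146, adjusted p = 0.01), rising from 1653 and 1352 to 2818 and 2524 in KO. Apcs and Cp fell in KO with interactions of -0.62 ± 0.101 and -0.46 ± 0.0927.

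The called interactions of the stress pathways were all above 0, where 3.21% of all genes were called. Of 27 integrated stress response genes, 14 rose and 2 fell in KO and 2 rose in WT, against 14.1%, 10% and 2.3% of all genes, and 3 interactions were called, all above 0, with a list median of 0.282 (0.174 within the second array set). Chac1, which degrades glutathione, read 528 and 513, then 1170 and 1232 in KO and 445 and 496, then 585 and 592 in WT (0.87 ± 0.134, adjusted p = 0.0086). Both ethanol KO arrays exceeded every other array. Shmt2, of mitochondrial one-carbon metabolism, had 0.70 ± 0.134 and the amino acid transporter subunit Slc3a2 0.63 ± 0.151. Among 28 genes of ER chaperones and ER-associated degradation, 13 rose in KO and 9 in WT, and Pdia3 was the 1 gene with a called interaction (0.50 ± 0.112, adjusted p = 0.035). The median of that list, 0.0702, turned to -0.0595 under trimmed-mean scaling. Of 16 cytosolic heat shock genes, 8 rose in KO and 2 in WT, and Dnajb1, a co-chaperone of Hsp70 (0.65 ± 0.141), and Hspa8 (0.39 ± 0.077), the constitutive Hsp70, were called, the latter reversing in sign under trimmed-mean scaling.

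Of 24 NRF2 and glutathione genes, 3 were called, all above 0, against 3.21% of all genes. Osgin1, a growth inhibitor induced by oxidative stress, read 1304 and 1391 in KO at 0 mM and 4255 and 3786 in KO at 100 mM, against 5269 and 5240, then 6849 and 6313 in WT. It rose in both genotypes and stayed lower in KO, with an interaction of 1.24 ± 0.112 (adjusted p = 0.0014). Hmox1, which degrades haem, fell in WT from 2530 and 2260 to 1849 and 1737 and read 4394 and 4586, then 4574 and 4752 in KO (0.47 ± 0.109, adjusted p = 0.041). Gstm3, a glutathione transferase, had 0.44 ± 0.0972. The list median of 0.17 turned to -0.109 under trimmed-mean scaling. Enzymes of alcohol and aldehyde metabolism showed 1 called interaction among 16, in Aldh1a7 (-0.47 ± 0.103, adjusted p = 0.032), against 1.81% of all genes called below 0, with a list median of -0.00135 (-0.238 under trimmed-mean scaling).

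Lipid synthesis genes were called in both directions. Of 27 genes of lipogenesis and sterol synthesis, 5 were above and 2 below 0, against 3.21% and 1.81% of all genes, with a median of 0.129 (0.0421 within the second array set). Fasn, the fatty acid synthase, rose in KO from 1432 and 1372 to 2451 and 2686 and read 1675 and 1737, then 1465 and 1467 in WT. Ethanol KO lay above all other arrays, and the interaction was 1.08 ± 0.108 (adjusted p = 0.0018). Srebf1, the transcription factor that drives Fasn, rose in KO from 503 and 528 to 1063 and 775 and read 985 and 1015, then 943 and 953 in WT (0.87 ± 0.187, adjusted p = 0.03). Thrsp, a lipogenic regulator, rose 2.44-fold in KO and by 0.59 on the log2 scale in WT (interaction 0.70 ± 0.114). Me1, which supplies NADPH to lipogenesis, and Fdps, of isoprenoid synthesis, had a fall called in WT and not in KO (0.59 ± 0.101 and 0.50 ± 0.0987). Idi1 and Cyp51, of sterol synthesis, had a fall called in KO alone, with interactions of -0.66 ± 0.112 and -0.49 ± 0.1.

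Of 28 genes of the urea cycle and amino acid catabolism, 5 had a called interaction, each above 0, against 3.21% of all genes, with a median of 0.176. With ethanol 16 of the 28 rose in KO and 3 in WT, against 14.1% and 2.3% of all genes, and 17 had been lower in untreated KO, against 21%. Got1, the cytosolic aspartate aminotransferase, read 1844 and 1813, then 2975 and 2517 in KO and 1322 and 1441, then 984 and 1161 in WT (0.94 ± 0.151, adjusted p = 0.01). Its KO values lay above its WT values throughout. Gpt, the alanine aminotransferase, had 0.63 ± 0.144, Mat1a, which makes S-adenosylmethionine, 0.51 ± 0.0953, Asl, of the urea cycle, 0.45 ± 0.105, and Ahcy, of the methionine cycle, 0.39 ± 0.0813. Fatty acid oxidation genes had 1 call of 28, in Cyp4a12a (0.64 ± 0.101), a gene with near-identical copies. Bile acid genes had 1 of 20, in Cyp8b1 (0.81 ± 0.193), gluconeogenesis genes 1 of 14, in Fbp1 (0.35 ± 0.0853), and drug-metabolising P450s and their receptors 1 of 19, in Cyp2d22 (0.78 ± 0.14). Of 9 tested hepatocyte markers, 1 was called, Ahsg, a plasma glycoprotein. It rose in KO from 4262 and 3952 to 7613 and 7270 (0.62 ± 0.0986). The interaction was above 0 in 4 of the 9 markers, with a median of -0.0314.

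For the remaining lists the same background holds, 3.21% of all genes called above and 1.81% below 0. Hypoxia and glycolysis genes were called in 2 of 22, Pkm (0.62 ± 0.13) and Aldoa (0.44 ± 0.0941), both glycolytic enzymes, and the list median of 0.134 turned to -0.0528 under trimmed-mean scaling. Respiratory chain subunits were called in both directions, with Uqcrc2 at -0.69 ± 0.101, Ndufs1 at -0.49 ± 0.118 and Atp5c1 at 0.46 ± 0.0916 among 34 tested. Proteasome subunits gave Psmb2 at 0.67 ± 0.122 and Psmd1 at -0.55 ± 0.0941 among 29. Of 24 cell cycle genes and 26 genes of TGF-beta signalling, matrix and cytoskeleton, 0 had a limma call, and 4 and 5 had an unadjusted p under 0.05. For comparison, 4457 of all 19814 tested probe sets had an unadjusted limma p under 0.05. The clock gene Rora (-0.90 ± 0.173) was the 1 call among 16 clock genes.

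Of the 24 pathway lists, immediate early genes had the highest median in the reported fit, 0.329 (0.118 with both B ethanol arrays read as untreated), with 3 of 21 interactions called above 0 and 1 below, against 3.21% and 1.81% of all genes. Fosl1, an AP-1 subunit, read 1055 and 1060, then 1321 and 1879 in KO and 908 and 908, then 613 and 644 in WT (1.09 ± 0.198, adjusted p = 0.016). Junb, another subunit, had a fall called in WT alone (0.53 ± 0.11), and Ier2 a rise called in KO alone (0.62 ± 0.127). Egr1, a zinc finger factor, went against the rest: it rose in WT from 1367 and 1439 to 2121 and 2224 and fell in KO from 2797 and 2845 to 2456 and 2347. Its interaction was -0.86 ± 0.1 (adjusted p = 0.0031). Of 20 genes for Sp factors, growth factor receptors and apoptosis, Tnfrsf1a, the receptor for tumour necrosis factor, was called (0.75 ± 0.16, adjusted p = 0.029), rising in KO from 600 and 657 to 1335 and 1103. Among 12 transglutaminases and their substrates the calls were Tgm2 and Ivl, and among 11 retinoic acid genes Cyp26a1.

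**Figure D5:**
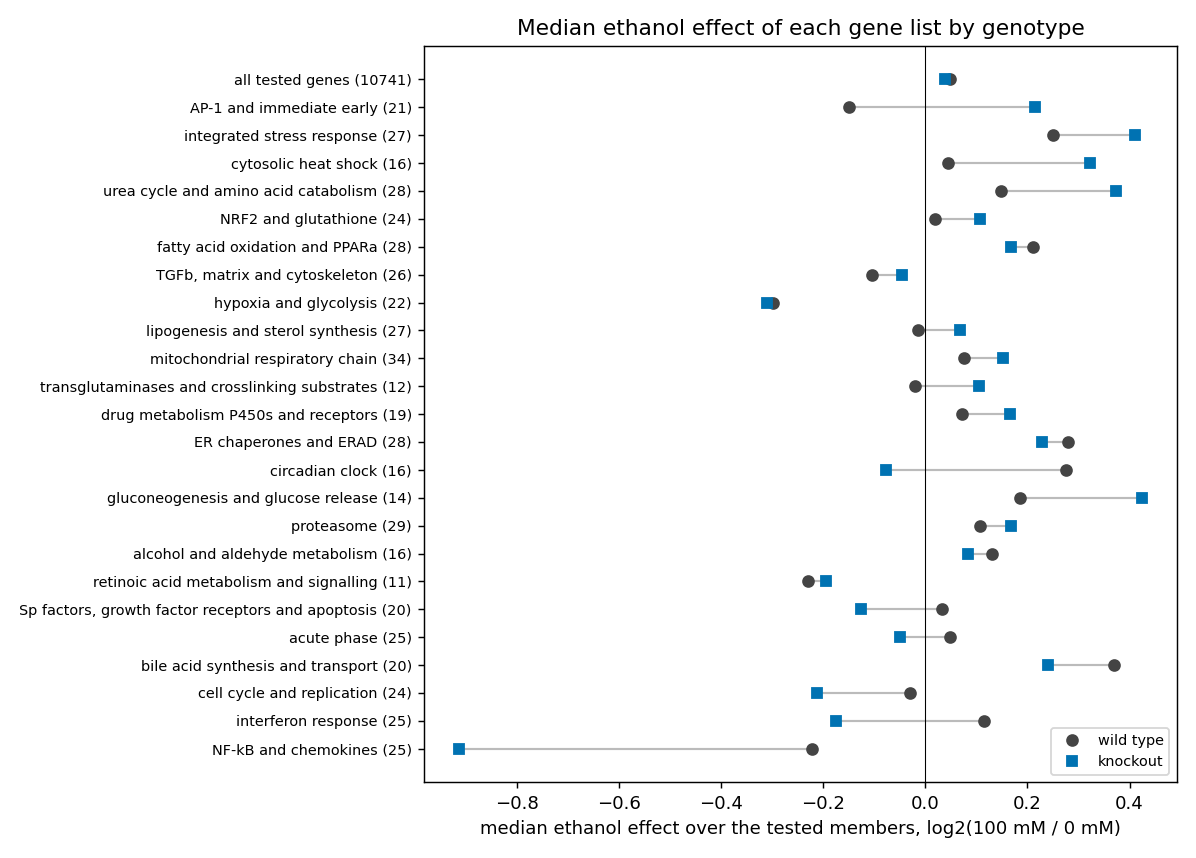
Median ethanol effect (log2, 100 mM over 0 mM) over the tested members of each of the 24 gene lists and over all tested genes, in wild type (grey circles) and knockout (blue squares), ordered by the median interaction, which need not equal the gap between both medians, with the number of tested members in brackets. The NF-kB and chemokine list has the lowest knockout median, and the median over all genes is near 0 in both genotypes.

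Of the 539 genes, 62 stayed called when each of the 8 arrays was left out in turn. Over 19 alternatives, those arrays included and setting aside the removal of the intensity trend and the B ethanol arrays counted as untreated, 58 stayed called with the same sign. They comprised 35 of the 409 genes called in KO alone, 3 of the 62 in WT alone, 13 of the 28 with opposite effects, 7 of the 15 with the same direction and 0 of the 25 with neither effect called. No called member of the NF-kB and chemokine list was among them. Without the trend as well, 14 remained, listed here because of that count and so chosen after their values were seen. Klf3, Prep, Sephs2, Cnnm4, Habp2, Ivl, Cyp26a1 and Osgin1 are described above, as is Erdr1. The others were called in KO alone. Slc25a10, the mitochondrial dicarboxylate carrier, had an interaction of 1.39 ± 0.137, Chka, a choline kinase, 1.23 ± 0.143, Ddost, a subunit of the glycosylation enzyme of the endoplasmic reticulum, 1.16 ± 0.122, Id1, an inhibitor of helix-loop-helix factors, 1.13 ± 0.113, and Nipbl, which loads cohesin, -1.33 ± 0.156.

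Probe sets of 1 gene often differed. Of the 276 called genes with more than 1 tested probe set, 49 had another probe set called in the same direction and 3 had one called in the opposite direction. Of their 504 other probe sets, 350 (69.4%) had the same sign of interaction, and the median interaction of these others was 30% of that on the brightest probe set. Among Tgm2 and the genes named by rank in a form or in the towards group, some had an uncalled probe set of the opposite sign. These were E2f5, Klf3, Prep, Sephs2, Rgs16, Arih2, Cnnm4, Habp2, Nat8f4 and Tgm2. Among the genes named from the lists, Cp was called on 1 of 6 probe sets, Rora on 1 of 5 and Hspa8 on 1 of 4. Shmt2 was called on 2 of 4 and Aldoa on 4 of 5. The signs of their other probe sets are not given here. The remaining 263 called genes were tested on a single probe set.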

How the data were processed

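RNA of mouse primary hepatocytes was labelled and hybridised to 1-colour Affymetrix arrays, per the labels' protocols. The authors deposited a table of linear intensities with 45101 probe sets, 64 of them controls, and 1 column per array. How probes were summarised or scaled is not given in the sources used here. On ethanol WT B, 5410 values were unusable (5403 exact zeros, 7 impossible numbers) in 1 stretch of the table, and were treated as missing. This left 39627 complete non-control probe sets. Of 18193 named genes, 877 had no complete probe set.

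Intensities were quantile normalised over the 8 arrays and taken as log2(intensity + 16), which understates changes of dim genes. The brighter 50% by mean, at 5.4 or more on the log2 scale, were tested with limma 3.58.1 in R 4.3.3: 4 group means, an intensity trend in the variance prior, 4 residual and 5.43 prior degrees of freedom. The mean was taken over all 8 arrays, so a gene dim in some groups could be tested through the groups where it was high. Each of 5 contrasts had its own Benjamini-Hochberg adjustment. Errors are SE of log2 differences, and folds are of normalised intensity plus 16. With 2 arrays a group, their number limits the precision. The fit was tested on simulated data.

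Symbols came from the platform annotation (34945 probe sets with 1 symbol, 932 with several, 9224 with none), updated by Entrez ID through RefSeq GRCm38.p6 for 34741. The members and lists were chosen with earlier results of these data known. Named genes were, among called genes with the same sign from A and from B, the 4 highest and 4 lowest interactions of the opposite, KO-alone and WT-alone forms, 2 and 2 of the other forms, the 5 largest KO effects in each direction of the towards group, up to 3 members per list and Tgm2. Further called list members and the 14 most stable genes are named too. The 8 marker lists served as checks of cell type. Alternatives were trimmed-mean scaling (2% left out at each end), offsets 1 and 64, other filters, missing values kept, no trend, 1 probe set per gene, the replicate block, the array set as a term or alone, both readings of the B ethanol arrays, and leaving out each array.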

Additional observations from a re-analysis of the deposited data

Results flagged for a closer look

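Each gene that the text names and whose interaction was called is listed here, because the test of the difference itself separated the 2 genotypes' ethanol effects. These were 122 genes. Sample-by-sample outliers were not sought, since each group has 2 arrays. The interactions (log2, KO minus WT) are given by form and direction, with no explanation.

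With opposite effects, the values above 0 were 2.12 for Klf3, 1.41 for Ugt3a2, 1.17 for Tnfrsf12a and 1.12 for Prep. With opposite effects, the values below 0 were -1.44 for Sephs2, -1.14 for Rgs16, -1.0 for Arih2, -0.96 for Polr2a and -0.86 for Egr1. With an effect called in KO alone, the values above 0 were 2.86 for Tcl1b3, 2.19 for E2f5, 2.19 for Faim2, 1.94 for Ccdc180, 1.25 for Gprin3, 1.09 for Fosl1, 1.08 for Fasn, 0.94 for Got1 and 0.91 for Serpina3n. These were followed by 0.87 for Srebf1, 0.87 for Chac1, 0.81 for Cyp8b1, 0.80 for Tgm2, 0.78 for Cyp2d22, 0.75 for Tnfrsf1a, 0.70 for Shmt2, 0.67 for Psmb2 and 0.65 for Dnajb1. Next came 0.63 for Gpt, 0.63 for Slc3a2, 0.62 for Ier2, 0.62 for Ahsg, 0.51 for Mat1a, 0.46 for Atp5c1, 0.45 for Asl, 0.44 for Aldoa and 0.44 for Gstm3. The smallest were 0.39 for Ahcy, 0.39 for Hspa8 and 0.35 for Fbp1. With an effect called in KO alone, the values below 0 were -2.40 for Serpinb2, -2.28 for Il23a, -2.10 for Cxcl3, -1.87 for Irak1, -1.87 for Nos2, -1.77 for Ackr3, -1.73 for Vcam1, -1.11 for Tnfaip2 and -0.90 for Rora. These were followed by -0.90 for Saa3, -0.87 for Ccl7, -0.73 for Ifih1, -0.69 for Uqcrc2, -0.66 for Idi1, -0.62 for Apcs, -0.61 for Iigp1, -0.55 for Psmd1 and -0.49 for Ndufs1. Next came -0.49 for Cyp51, -0.47 for Aldh1a7 and -0.46 for Cp. With an effect called in WT alone, the values above 0 were 2.79 for Ctse, 2.02 for Cnnm4, 1.76 for Habp2, 1.71 for Nol9, 0.64 for Cyp4a12a, 0.62 for Pkm, 0.59 for Me1, 0.57 for Oasl1 and 0.53 for Junb. These were followed by 0.50 for Fdps and 0.47 for Hmox1. With an effect called in WT alone, the values below 0 were -0.99 for Rcn1, -0.98 for Clcn3, -0.83 for Icam1 and -0.73 for Nat8f4. With unequal effects of the same direction, the values above 0 were 1.70 for Ivl, 1.53 for Cyp26a1, 1.24 for Osgin1, 1.08 for Slc25a47, 0.87 for Apoa5 and 0.70 for Thrsp. With unequal effects of the same direction, the values below 0 were -1.30 for Gm13889, -0.94 for Ankrd1 and -0.59 for Tnfaip3. With neither effect called, the values above 0 were 1.93 for 4931429L15Rik, 1.23 for Gstcd and 0.50 for Pdia3. With neither effect called, the values below 0 were -0.81 for Zfp451 and -0.80 for Taok3.

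Further genes with opposite effects had interactions above 0 of 1.10 for Zyx, 1.04 for Qsox1, 1.04 for Tln1, 1.01 for Ifrd2, 0.95 for Arpc4, 0.94 for Lims2, 0.93 for Mlf2 and 0.91 for Snx9. Smaller ones were 0.90 for Gatad2a, 0.75 for Pdlim7, 0.75 for Igf2r, 0.71 for Ptbp1, 0.70 for Pfn1, 0.69 for Dusp5 and 0.53 for Mid1ip1. Those below 0 were -0.91 for Ikbke, -0.90 for Sdad1, -0.68 for Arpp19 and -0.61 for Prg4. Further genes called in KO alone, among them those that moved away from WT, those that stayed called most often and those next to the threshold, had 1.59 for Erdr1, 1.43 for Angptl8, 1.39 for Slc25a10, 1.23 for Chka, 1.16 for Ddost and 1.13 for Id1. The rest above 0 were 1.01 for H2-Q5, 1.005 for Decr2, 0.77 for Pltp, 0.77 for Ankrd33b, 0.76 for Zfand2a and 0.71 for Ifnar2. Those below 0 were -1.33 for Nipbl and -0.40 for Paip2.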

How the results depend on the processing

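Counts are of probe sets for the interaction and of genes for the forms. Without the filter on dim probe sets there were 663 interaction calls, 11 opposite genes, 252 in KO alone, 36 in WT alone, 9 of the same direction, 13 with neither effect called and 206 towards WT. The top 30% of probe sets gave 43 opposite, 95 in WT alone, 29 of the same direction and 42 with neither. Without the intensity trend these were 85 calls, 2, 13, 2, 2, 0 and 11, with 3853 probe sets at an unadjusted p under 0.05 and 85.9% of calls above 0. The second array set alone gave 600 calls, 13 opposite, 226 in KO alone, 33 in WT alone, 10 with neither and 174 towards WT, from 1 residual degree of freedom. Testing 1 probe set per gene gave 617 calls among 10741 features, each a gene, against 539 called genes in the reported fit. It gave 38 genes with neither, and trimmed-mean scaling also gave 38. Keeping probe sets missing on 1 array gave 8 genes of the same direction. Requiring a 1.5-fold ethanol effect in place of a called one gave 10 opposite, 39 in WT alone, 9 of the same direction and 198 with neither.

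With the B ethanol arrays left out, 3280 interactions were called (49.5% above 0), with 56 opposite, 1461 in KO alone, 94 in WT alone, 44 of the same direction, 105 with neither and 827 towards WT. Counted as untreated, they left 0 in every count. Leaving out each array in turn, with a lone array assumed to vary like the other groups, gave ranges of 195 to 4402 interaction calls, 3 to 110 opposite, 52 to 1876 in KO alone, 11 to 170 in WT alone, 5 to 136 of the same direction, 1 to 127 with neither and 44 to 1096 towards WT. The cause was not tested. The replicate block on the letters A and B gave 1241 calls and kept 528 of the 539 genes. By the criterion that every pair of groups correlates above 0.1, the letters were not taken as pairs. The deviations correlated at 0.204 to 0.302 among the 3 groups whose A and B arrays lie in different array sets, and at 0.0218 to 0.0308 with untreated KO, whose arrays share a set. The array set as a term gave 1066 calls and kept 466 of the 539 genes, and an offset of 64 or 1 gave 1118 or 1022.

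For 78 called genes under the alternatives, 1096 values kept direction and call, 530 kept direction but lost the call, and 1 reversed: Hspa8 at -0.0535 under trimmed-mean scaling. For 27 list members that were not called, 494 values stayed so in the same direction, 69 became called and 2 changed sign. Values under the offset of 16 have no reliable fold, which limits Faim2, Serpinb2, Il23a, Ctse and Nos2.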
